A study of Mus musculus with 32 samples.

Results

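Primary tumours of the Ovgp1-BPR mouse model were compared with those of the Pax8-BPR model across all genes. Members were the 3 libraries titled Ovgp1-BPR GEMM and the 4 titled Pax8-BPR GEMM, 7 of the 32 libraries of the series, and GEMM stands for genetically engineered mouse model. The series profiled total RNA of ovarian tumours induced in mice by different routes, with 6 normal ovary and oviduct libraries beside 26 tumours, and its title names high-grade serous ovarian cancer. In both models the tumours arose in female C57Bl/6 mice after tamoxifen, which switches on the Cre recombinase, and were collected at endpoint, months after induction. Both carried Brca1 fl/fl and K18GT121 Tg/+, a transgene that the design text describes as inhibiting Rb. Pax8-BPR mice combined these with the Pax8-CreERT2 Tg/+ driver and with Trp53 fl/fl. Ovgp1-BPR mice combined them with the Ovgp1-CreERT2 Tg/+ driver and with Trp53 KozR172H ki/+, a knock-in of a mutant p53. The design text gives a different Ovgp1-BPR genotype, with Trp53 fl/fl and a driver spelled Ovgp1-iCreERT2, while naming the R172H mutation as the induced change. The Cre driver and the Trp53 allele therefore change together and cannot be told apart, while strain, sex, Brca1 allele and inducing agent are shared. Ages are not in the labels. Animal numbers in the titles differ between all 7 tumours, so no animal is repeated among them. The p-values rest on a spread estimated over all 26 tumours in 8 groups, allografts included, and not on these 7 alone. Allografts of both models, 3 Ovgp1-BPR and 2 Pax8-BPR, gave a second comparison with no library in common, though the labels do not say which tumours were transplanted.

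Both drivers are meant to direct Cre to secretory cells of the oviduct epithelium. Pax8 is a transcription factor of the Müllerian duct epithelium that is also made in kidney and thyroid, and Ovgp1 encodes oviductin, a glycoprotein secreted by the oviduct lining. High-grade serous carcinoma is thought to start largely in this epithelium, with the ovarian surface, a layer related to the mesothelium, as another proposed source. Many such tumours lose homologous recombination repair through BRCA1 or BRCA2.

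The sequences just upstream of both endogenous driver genes are shown because they name the 2 models and because Ovgp1 itself differed between the tumours. They are from RefSeq, build GRCm38.p6, and run 5′ to 3′ along the gene. They are not the transgenes, whose sequence was not used here. The Ovgp1 stretch is the plus strand of chr3:105973552-105973710, 159 bases that end where GENCODE M21 starts the gene. The Pax8 stretch is the minus strand of chr2:24475600-24475849, 250 bases. Capitals mark matches on either strand to GGTCA, the half-site of an estrogen response element, and to TGANTCA. The latter is a loose form of the AP-1 motif that allows any base in the middle.
Ovgp1: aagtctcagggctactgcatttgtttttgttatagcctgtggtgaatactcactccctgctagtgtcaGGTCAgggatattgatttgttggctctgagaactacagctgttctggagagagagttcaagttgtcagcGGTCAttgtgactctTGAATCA
Pax8: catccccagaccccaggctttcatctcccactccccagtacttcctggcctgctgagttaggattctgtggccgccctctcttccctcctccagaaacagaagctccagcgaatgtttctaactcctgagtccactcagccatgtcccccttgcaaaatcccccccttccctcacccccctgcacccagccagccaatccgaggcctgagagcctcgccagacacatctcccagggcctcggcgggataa
The Ovgp1 stretch held 2 matches to GGTCA and 1 to TGANTCA, which do not overlap. GGTCA occurs in 23.9% and TGANTCA in 4.32% of 32851 promoter windows of the same length. The Pax8 stretch held neither, against 35.2% and 6.75% of windows of its length.

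Levels are given as CPM, counts scaled to a common library size with a correction for library composition, for replicates 1 to 3 and 1 to 4 in order. Log2 fold changes are Ovgp1-BPR minus Pax8-BPR, with ± for their standard error. A gene was called when its adjusted p (edgeR's quasi-likelihood test, Benjamini-Hochberg over all genes tested) was under 0.05. Trp53 (chr11:69580359-69591873, GENCODE M21 on GRCm38), the tumour suppressor, was read at 156, 125 and 102 CPM in the Ovgp1-BPR tumours and 42.9, 24.9, 22.6 and 29.6 CPM in the Pax8-BPR tumours. All 3 knock-in tumours lay above all 4 floxed tumours (log2 fold change 2.09 ± 0.24, adjusted p = 3.5e-05). The allografts had 122, 101 and 152 CPM against 18.4 and 12.9 CPM. OSE-BPR and Ad-BPR primary tumours, which carry Trp53 fl/fl and received adeno-Cre, had 12.4, 8.37 and 14.5 CPM and 16.7 and 14.6 CPM. Normal oviducts had 83.7 to 94.7 CPM and normal ovaries 110.1 to 118 CPM, scaled over all 32 libraries. The floxed tumours were thus below all normal libraries, and the knock-in tumours were above all normal oviducts, with replicate 3 below the normal ovaries. The gene count does not separate exons or alleles, so it does not show which allele was transcribed. Brca1, floxed in both models, was read at 49.9, 31.5 and 37.4 CPM against 19.2, 29.8, 70.3 and 66.8 CPM and was not called (log2 fold change -0.23 ± 0.37, adjusted p = 0.674). Rb1, which encodes the retinoblastoma protein, was read at 37.1, 36.5 and 64.4 CPM against 18.5, 21.4, 33.7 and 27 CPM (log2 fold change 0.87 ± 0.30, adjusted p = 0.045). Rb1 lost the call without Ovgp1-BPR GEMM replicate 2 or 3, or without Pax8-BPR GEMM replicate 1, 2 or 4 (highest adjusted p 0.273). Cdkn2a, the p16 and p19Arf locus, was not called (160.3 to 215 against 187 to 318 CPM, adjusted p = 0.291). Krt18, whose regulatory sequence drives the K18GT121 transgene, was not called either (273 to 826 against 283 to 1441 CPM, adjusted p = 0.163).

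The estrogen receptor gene Esr1 was read at 143, 497 and 543 CPM against 73.2, 19.3, 77.7 and 105 CPM in the Ovgp1-BPR and the Pax8-BPR tumours (log2 fold change 2.52 ± 0.85, adjusted p = 0.038). Every Ovgp1-BPR library lay above every Pax8-BPR library for Esr1. Esr1 lost the call without Ovgp1-BPR GEMM replicate 2 or 3, or without Pax8-BPR GEMM replicate 1, 2 or 3 (highest adjusted p 0.126). Endogenous Ovgp1 (chr3:105973711-105987423) was read at 796, 26.2 and 27.8 CPM against 3.66, 9.63, 1.8 and 1.45 CPM (log2 fold change 6.10 ± 1.05, adjusted p = 0.000847). The first Ovgp1-BPR library was far above the others for Ovgp1, and all 3 lay above all 4 Pax8-BPR libraries. The same library had the lowest Esr1 of the 3, and a link between Esr1, the upstream motifs and Ovgp1 was not tested. Without that replicate the log2 fold change was 2.7, and the call held with any library left out (highest adjusted p 0.0117). DESeq2 did not call Ovgp1. Normal oviducts had 3979, 6208 and 10340 CPM, so each of these tumours was below each normal oviduct. Endogenous Pax8 (chr2:24420560-24475599) was read at 83.5, 206 and 179 CPM against 167, 163, 24.1 and 67 CPM, overlapped between the models and was not called (log2 fold change 0.57 ± 0.95, adjusted p = 0.694). The marker check therefore found Pax8 in all 7 tumours and Ovgp1 at a small fraction of its normal oviduct level.

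Each of the 32 libraries held 13987123 to 20514825 counts. Of 55450 genes in the files, 20000 passed the filter on low counts. Across them, the Spearman correlation between libraries was 0.924 to 0.966 within the Ovgp1-BPR tumours, 0.904 to 0.946 within the Pax8-BPR tumours and 0.821 to 0.901 between them, as a description. 2 libraries stood apart, 1 in each group. Ovgp1-BPR GEMM replicate 1 had more Epcam, Ovgp1 and MHC transcripts and less Lhx2 (2.53, 117 and 168 CPM over the 3 replicates) than the other two. Pax8-BPR GEMM replicate 2 had less Wt1 (269.6, 12.7, 311 and 214 CPM over the 4 replicates) and more Hox and Wnt7a transcripts.

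Between the models 4493 genes were called, 22.5% of those tested. They split evenly, with 2248 (11.2%) higher and 2245 (11.2%) lower in the Ovgp1-BPR tumours. For 3569 of them the log2 fold change was at least 1 in size. The libraries did not overlap for 14.4% of genes with Ovgp1-BPR higher and for 14.3% with Ovgp1-BPR lower. Over all genes tested, the log2 fold change had a median of -0.06. On TPM, a unit scaled for transcript length, limma called 5303 genes, of which 67.7% were higher in place of 50.03%, and the median moved up by 0.21 on the log2 scale. Both counts depended on 2 of the libraries, the lower one more than the higher one. Without Ovgp1-BPR GEMM replicate 2 there were 1331 higher and 731 lower calls, and without replicate 3 there were 1047 and 550, whereas without replicate 1 there were 2331 and 2608. Leaving out a Pax8-BPR library gave 3397 to 4333 calls with an even split.

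**Figure D1:**
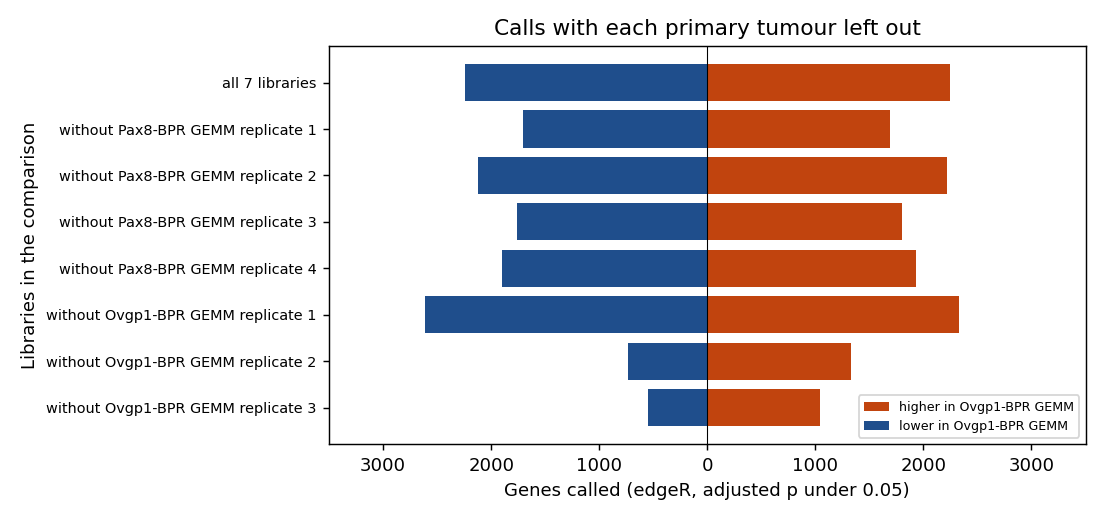
Genes called higher (right, orange) and lower (left, blue) in Ovgp1-BPR than in Pax8-BPR primary tumours, with all 7 libraries and with each library left out in turn. The lower calls drop from 2245 to 731 and 550 without Ovgp1-BPR GEMM replicate 2 or 3.

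The genes with the largest higher levels in the Ovgp1-BPR tumours were close to absent from the Pax8-BPR tumours. Of 1459 called genes with a mean of at least 10 CPM in the higher group and no overlap between libraries, the 15 with the largest fold changes were Tll2, Nell1, Aard, Gabrq, Gmnc, Ano5, Cacna2d3, Shisal1, Sv2b, Ctnna2, Tmem132c, Col6a6, Cntn2, Tmem215 and Scg5. Predicted genes were not named. Tll2, a tolloid-like metalloprotease, had no count in any Pax8-BPR primary tumour and 1.58, 15.3 and 64 CPM in the Ovgp1-BPR tumours, at least 155-fold higher against a floor of 3 counts per library. Nell1 (chr7:49974864-50866608), a secreted growth regulator of bone, was read at 48.4, 208 and 385 CPM against 0.282, 1.21, 0 and 0 CPM (log2 fold change 9.13 ± 1.17, adjusted p = 0.000169). It also separated the allografts, with 172, 163 and 36.2 CPM against none in either Pax8-BPR allograft, and was at 0.164 to 1 CPM in OSE-BPR primary tumours.

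Several of the leading genes are known from neurons. Gabrq, a GABA receptor subunit, was read at 28.6, 53.6 and 69.1 CPM against 0, 0.22, 0.211 and 0 CPM (log2 fold change 8.72 ± 1.23, adjusted p = 0.000169). Cacna2d3, a calcium channel subunit, had 27.8 to 102 against 0.106 to 0.22 CPM (log2 fold change 8.43 ± 1.43), Sv2b, a synaptic vesicle protein, had 5.65 to 31.9 against 0 to 0.214 CPM (7.80 ± 1.52), and Cntn2, an axonal adhesion molecule, had 33.8 to 857 against 0.528 to 7.55 CPM (7.26 ± 1.41). Ctnna2, the neural alpha-catenin, had 13.5 to 123 against 0 to 0.55 CPM (7.79 ± 2.00), Scg5, a neuroendocrine secretory protein, had 13.6 to 64.8 against 0 to 0.775 CPM (6.98 ± 1.37), and Tmem132c had 23.2 to 118 against 0.211 to 0.55 CPM (7.48 ± 1.27). These 7 genes were called with adjusted p from 0.000169 to 0.013. Others in the group have different known roles. Ano5, an anoctamin of skeletal muscle and bone, was read at 34 to 707 against 0 to 3.21 CPM (8.59 ± 1.68), Col6a6, a collagen VI chain, at 143 to 339.6 against 0.423 to 2.59 CPM (7.30 ± 1.37), and Gmnc, a geminin relative that starts the multiciliated cell programme, at 1.37 to 26.1 against 0 to 0.11 CPM. Aard had 43 to 54.3 against 0 to 0.211 CPM (8.84 ± 1.37), Shisal1 63 to 219.5 against 0.141 to 1.65 CPM (8.19 ± 1.06) and Tmem215 13.7 to 52.4 against 0 to 0.317 CPM (7.25 ± 1.23). All 15 kept their calls with each library left out in turn (highest adjusted p 0.0339).

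Sox6 and Unc45b, chosen after their values were seen, had the smallest adjusted p of the genes named here. Sox6 (chr7:115470872-116038796), a developmental transcription factor, was read at 92.4, 80 and 114 CPM against 0.915, 1.71, 0.793 and 0.161 CPM (log2 fold change 6.73 ± 0.68, adjusted p = 1.13e-05). Unc45b (chr11:82910550-82943403), a myosin chaperone of striated muscle, was read at 223, 155 and 276 CPM against 6.2, 1.82, 2.38 and 2.3 CPM (log2 fold change 6.11 ± 0.60, adjusted p = 1.13e-05). For both, the lowest Ovgp1-BPR library was far above the highest Pax8-BPR library. Both were also high in the OSE-BPR primary tumours (35.8, 40.3 and 93.5 CPM for Sox6 and 139, 102 and 324 CPM for Unc45b) and low in the Ad-BPR primary tumours (1.07 and 0.397 and 1.42 and 0.907 CPM). Sox6 and Unc45b kept their calls with each library left out in turn.

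**Figure D2:**
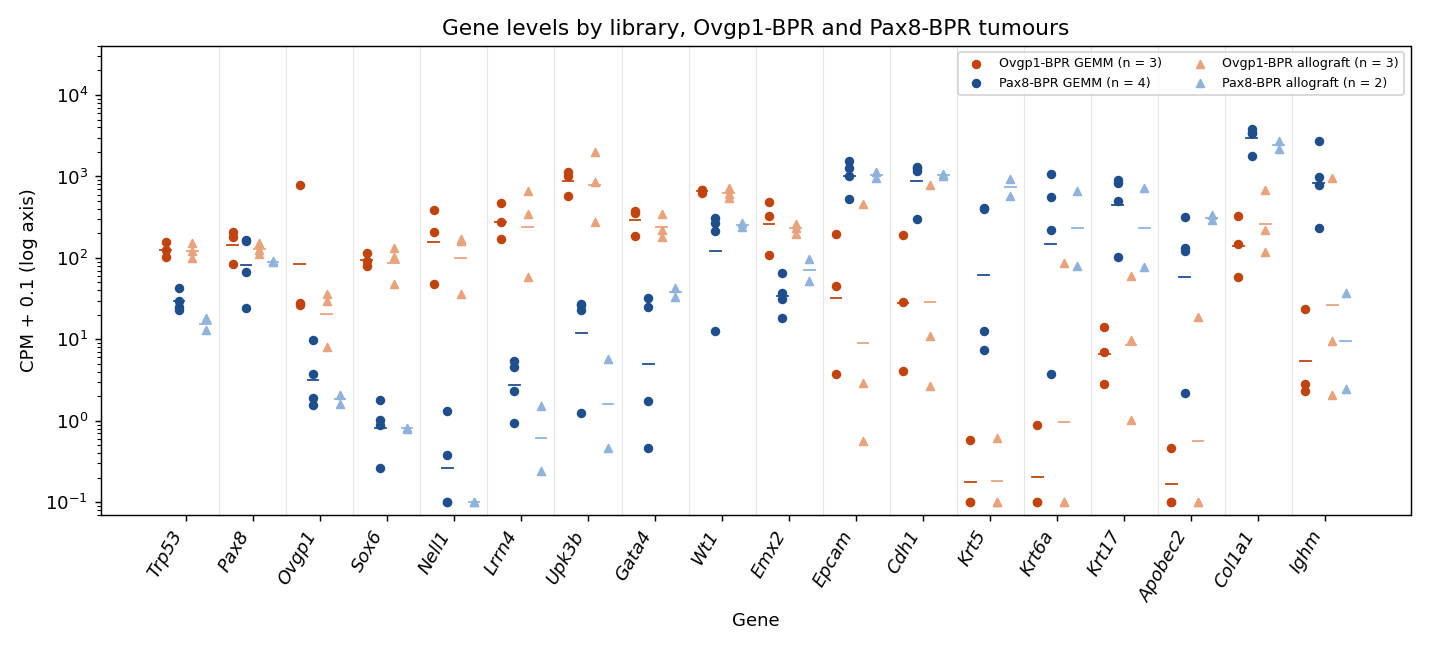
CPM plus 0.1 (log axis) of 18 genes in each Ovgp1-BPR and Pax8-BPR primary tumour (GEMM, circles) and allograft (triangles), with a short line at the geometric mean of each group. Trp53, Sox6, Lrrn4 and Emx2 separate both kinds of tumour, Pax8 overlaps, and Krt5, Krt6a and Apobec2 lie at or near 0 in all Ovgp1-BPR primary tumours.

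The genes with the largest lower levels in the Ovgp1-BPR tumours were nearly absent from them and varied widely among the Pax8-BPR tumours. By the same rule, met by 1249 lower genes, they were Cfd, Ifi202b, Clca3b, Krt6a, Krt5, Cyp21a1, Apobec2, Adgra1, Lncenc1, Pthlh, Tmprss11e, Lypd3, Cyp11a1, Prss22 and Ccl21a. Cfd, the adipocyte protease adipsin, had no count in any Ovgp1-BPR primary tumour and 4.23, 166, 119 and 3.8 CPM in the Pax8-BPR tumours, at least 448-fold lower against the floor. Ifi202b, an interferon-induced gene, also had no count there and 3.59, 0.055, 48.6 and 41.9 CPM in the Pax8-BPR tumours. This is at least 144-fold lower than the Pax8-BPR mean, although Pax8-BPR replicate 2 was itself near 0. Ifi202b was read at 13.5 to 27.1 CPM in normal ovary and 14.3 to 14.9 CPM in normal oviduct, so the Ovgp1-BPR primary tumours were below both. Krt5 and Krt6a, keratins of basal and wounded squamous epithelium, were read at 0.475, 0 and 0 CPM against 396, 12.6, 409.7 and 7.28 CPM (log2 fold change -10.25 ± 2.39, adjusted p = 0.00812) and at 0.792, 0 and 0 CPM against 1071, 3.63, 560.5 and 219.5 CPM (log2 fold change -10.71 ± 2.42, adjusted p = 0.00517). Apobec2, a deaminase family member of muscle, was read at 0.37, 0 and 0 CPM against 319.5, 2.09, 122 and 131 CPM (adjusted p = 0.00717). 3 of the 4 Pax8-BPR libraries were high for Krt6a and Apobec2 and replicate 2 was low. Ad-BPR primary tumours were high for both as well, with 225 and 219.5 CPM of Krt6a and 129 and 349.7 CPM of Apobec2.

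Genes of squamous epithelium and epithelial proteases were among the rest. Lypd3, a surface protein of differentiated squamous cells, was read at 0.106, 0 and 0 CPM against 14.8, 2.37, 61.9 and 6.64 CPM, Tmprss11e, an epithelial serine protease, at 0.0528, 0 and 0 CPM against 20.3, 0.11, 30.8 and 1.5 CPM, and Prss22, another one, at 0.317, 0.0544 and 0 CPM against 19.6, 9.74, 6.34 and 145 CPM. Clca3b, of the calcium-activated chloride channel regulators, was read at 0.106, 0 and 0 CPM against 5.14, 368, 12.9 and 2.09 CPM, and Pthlh, the parathyroid hormone-related protein, at 0.158, 0 and 0.0565 CPM against 16.3, 14, 146 and 0.856 CPM. The steroid enzymes Cyp21a1 and Cyp11a1 had 10.9 to 220.5 CPM and 0.0535 to 47.4 CPM in the Pax8-BPR tumours and at most 0.158 CPM and 0.0528 CPM in the Ovgp1-BPR tumours. Adgra1, an adhesion receptor, had 0 to 0.106 against 3.14 to 60 CPM, Ccl21a, a lymphoid chemokine, had 0 to 0.106 against 3.59 to 21.9 CPM, and the long noncoding Lncenc1 had 0.0565 to 0.211 against 0.22 to 399 CPM. For Lncenc1 and Cyp11a1 a single Pax8-BPR library carried most of the signal, replicate 3 and replicate 1. Ifi202b, Krt6a, Krt5, Apobec2, Adgra1, Pthlh, Tmprss11e, Lypd3 and Prss22 kept their calls with each library left out in turn. Cfd lost the call without Ovgp1-BPR GEMM replicate 1, 2 or 3, or without Pax8-BPR GEMM replicate 2 or 3 (highest adjusted p 0.121). Clca3b and Cyp21a1 lost their calls without Ovgp1-BPR GEMM replicate 3 (highest adjusted p 0.0521 to 0.0534). Lncenc1 lost the call without Ovgp1-BPR GEMM replicate 3, or without Pax8-BPR GEMM replicate 3 (highest adjusted p 0.11). Cyp11a1 lost the call without Ovgp1-BPR GEMM replicate 2 or 3, or without Pax8-BPR GEMM replicate 1 (highest adjusted p 0.105). Ccl21a lost the call without Ovgp1-BPR GEMM replicate 2 or 3 (highest adjusted p 0.0758).

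Mesothelial and ovarian surface genes were the list with the largest share of higher calls among the 33 lists examined. Of its tested members 10 of 15 (66.7%) were higher and 2 lower, against 11.2% of all genes in each direction, and the list's median log2 fold change was 3.07. Lrrn4 (chr2:132868305-132880891), a leucine-rich repeat protein of mesothelium, was read at 169, 275 and 469.5 CPM against 5.28, 2.26, 0.846 and 4.44 CPM (log2 fold change 6.58 ± 1.21, adjusted p = 0.00139). Upk3b (chr5:136038496-136046487), a mesothelial uroplakin, was read at 583, 1122 and 1013 CPM against 23, 26.9, 1.16 and 26.3 CPM (log2 fold change 5.55 ± 1.00, adjusted p = 0.00116). The groups were far apart for both. Pkhd1l1 had 291 to 329.9 against 0.687 to 8.1 CPM (log2 fold change 6.49 ± 0.98) and Gpm6a, a membrane glycoprotein also known from neurons, had 58.9 to 230.0 against 0.74 to 4.72 CPM (6.11 ± 0.99). Krt19 and Msln, which many carcinomas also express, went the other way, with 262, 128 and 125 CPM against 1998, 263, 1274 and 870.3 CPM (log2 fold change -2.68 ± 0.65, adjusted p = 0.00817) and 66.8, 13.5 and 3.84 CPM against 143, 18.3, 334 and 413 CPM (log2 fold change -3.02 ± 1.07, adjusted p = 0.0467). Lrrn4, Upk3b, Pkhd1l1 and Gpm6a kept their calls with each library left out in turn. Krt19 lost the call without Ovgp1-BPR GEMM replicate 3 (highest adjusted p 0.0506). Msln lost the call without Ovgp1-BPR GEMM replicate 2 or 3, or without Pax8-BPR GEMM replicate 1, 3 or 4 (highest adjusted p 0.165). The higher count was 9 and 8 without Ovgp1-BPR GEMM replicate 2 and 3. In OSE-BPR primary tumours, which arise from the ovarian surface, Upk3b was at 514, 1075 and 974 CPM and Lrrn4 at 229.6, 50 and 141 CPM, and in Ad-BPR primary tumours, from the oviduct, they were at 9.03 and 1.25 CPM and 4.34 and 0.34 CPM.

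Transcription factors of the gonad and coelomic epithelium included both higher and lower genes. 5 of 16 (31.2%) were higher and 3 (18.8%) lower, beside 11.2% of all genes each way, with a median log2 fold change of 1.25. Gata4, a regulator of gonad and heart, was read at 361, 184 and 373 CPM against 24.7, 1.65, 0.37 and 31.7 CPM (log2 fold change 4.39 ± 0.83, adjusted p = 0.0017), and its relative Gata6 at 214, 214 and 156 CPM against 19.4, 13.7, 8.93 and 22.8 CPM (log2 fold change 3.58 ± 0.65, adjusted p = 0.00117). Wt1, a marker of serous carcinoma, mesothelium and gonad, was read at 689, 679 and 619 CPM against 269.6, 12.7, 311 and 214 CPM (log2 fold change 1.71 ± 0.52, adjusted p = 0.0253). Lhx2, a LIM homeobox factor, was read at 2.53, 117 and 168 CPM against 1.9, 1.98, 6.18 and 1.07 CPM (log2 fold change 5.09 ± 1.22, adjusted p = 0.00747), and its first Ovgp1-BPR library fell inside the Pax8-BPR range. Osr1, of the early urogenital mesoderm, was lower with 0 to 0.158 against 0.589 to 13.6 CPM. Gata4, Gata6 and Lhx2 kept their calls with each library left out in turn. Wt1 lost the call without Ovgp1-BPR GEMM replicate 2 or 3 (highest adjusted p 0.0672). Osr1 lost the call without Ovgp1-BPR GEMM replicate 2 or 3, or without Pax8-BPR GEMM replicate 3 (highest adjusted p 0.0783). For the whole list, the lower count was 0 without Ovgp1-BPR GEMM replicate 2 or 3 and 1 without Pax8-BPR GEMM replicate 2, while on TPM limma called 5 higher and 1 lower. Amhr2, the receptor for anti-Müllerian hormone, was read at 283, 139.9 and 43.8 CPM against 10.8, 0.385, 0.317 and 0.963 CPM (log2 fold change 5.67 ± 0.94, adjusted p = 0.000634). Amhr2 kept its call with each library left out in turn.

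Of the Müllerian duct regulators, 3 of 20 (15%) were higher and 2 (10%) lower, beside 11.2% of all genes each way, with a median log2 fold change of -0.67 (-0.44 with members at 0 in 1 group set to their bound). Emx2, needed for the urogenital tract, was read at 109, 328 and 487 CPM against 18.3, 64.3, 31.6 and 36.7 CPM (log2 fold change 3.03 ± 0.53, adjusted p = 0.000881). Every Ovgp1-BPR library was above every Pax8-BPR library. Hoxa10, which patterns the uterus, was lower with 0.0528, 0 and 0.169 CPM against 0, 12.9, 2.22 and 0.161 CPM (log2 fold change -5.57 ± 1.75, adjusted p = 0.0285). The groups overlapped for Hoxa10. The progesterone receptor gene Pgr was not called (4.43 to 22.8 against 0.476 to 13.7 CPM, adjusted p = 0.677). Emx2 kept its call with each library left out in turn. Hoxa10 lost the call without Ovgp1-BPR GEMM replicate 1, 2 or 3, or without Pax8-BPR GEMM replicate 2 (highest adjusted p 0.118). Among all its members, the higher count was 1 without Ovgp1-BPR GEMM replicate 2 or 3 or Pax8-BPR GEMM replicate 2 or 3, and the lower count was 0 without Ovgp1-BPR GEMM replicate 1, 2 or 3 and 1 without Pax8-BPR GEMM replicate 2 or 3, while on TPM limma called 3 higher and 1 lower. In the wider list of estrogen and progesterone response, 2 of 17 (11.8%) were higher and 2 (11.8%) lower. Igfbp5, an insulin-like growth factor binding protein, had 720.1 to 3024 against 49.8 to 161 CPM (log2 fold change 4.51 ± 0.78, adjusted p = 0.000838), and the lysosomal protease Ctsd had 409 to 653 against 1056 to 2679 CPM (log2 fold change -1.5 ± 0.32, adjusted p = 0.00349). Igfbp5 and Ctsd kept their calls with each library left out in turn. Among the hormone response genes, the higher count was 1 without Ovgp1-BPR GEMM replicate 2 or 3 or Pax8-BPR GEMM replicate 1 or 3, and the lower count was 1 without Ovgp1-BPR GEMM replicate 2 or 3 or Pax8-BPR GEMM replicate 1 and 4 without Ovgp1-BPR GEMM replicate 1.

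Among secretory products of the oviduct, 3 of 13 (23.1%) were lower, beside 11.2% of all genes, and Ovgp1 was the higher one. Muc1, a transmembrane mucin, was read at 55.8, 4.02 and 1.19 CPM against 968, 254, 79.6 and 193 CPM (log2 fold change -4.20 ± 1.44, adjusted p = 0.0417), Spp1, osteopontin, at 97.3, 28.9 and 3.95 CPM against 1524, 324, 339 and 929.6 CPM (log2 fold change -4.17 ± 1.04, adjusted p = 0.00924), and Lcn2, a siderophore-binding lipocalin, at 237, 114 and 9.26 CPM against 5836, 445, 735 and 1038 CPM (log2 fold change -4.07 ± 1.29, adjusted p = 0.0295). Spp1 kept its call with each library left out in turn. Muc1 and Lcn2 lost their calls without Ovgp1-BPR GEMM replicate 2 or 3, or without Pax8-BPR GEMM replicate 1 (highest adjusted p 0.112 to 0.142). Among the secretory products, the lower count was 1 without Ovgp1-BPR GEMM replicate 2 or 3 or Pax8-BPR GEMM replicate 1 and 5 without Ovgp1-BPR GEMM replicate 1. Of the genes of motile cilia, the other cell type of the oviduct lining, 2 of 21 (9.52%) were higher and none lower by edgeR, beside 11.2% of all genes each way. These were Dnah9, an axonemal dynein (0.489 to 4.86 against 0.0529 to 0.214 CPM), and Cfap46 (1.69 to 6.04 against 0.161 to 0.951 CPM). Dnah9 lost the call without Ovgp1-BPR GEMM replicate 1 (highest adjusted p 0.079). Cfap46 lost the call without Ovgp1-BPR GEMM replicate 3 (highest adjusted p 0.0649). Among the cilia genes, the higher count was 1 without Ovgp1-BPR GEMM replicate 1 or 3. Foxj1, which directs ciliation, was not called (12.6 to 37.5 against 13.8 to 339 CPM, adjusted p = 0.151).

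**Figure D3:**
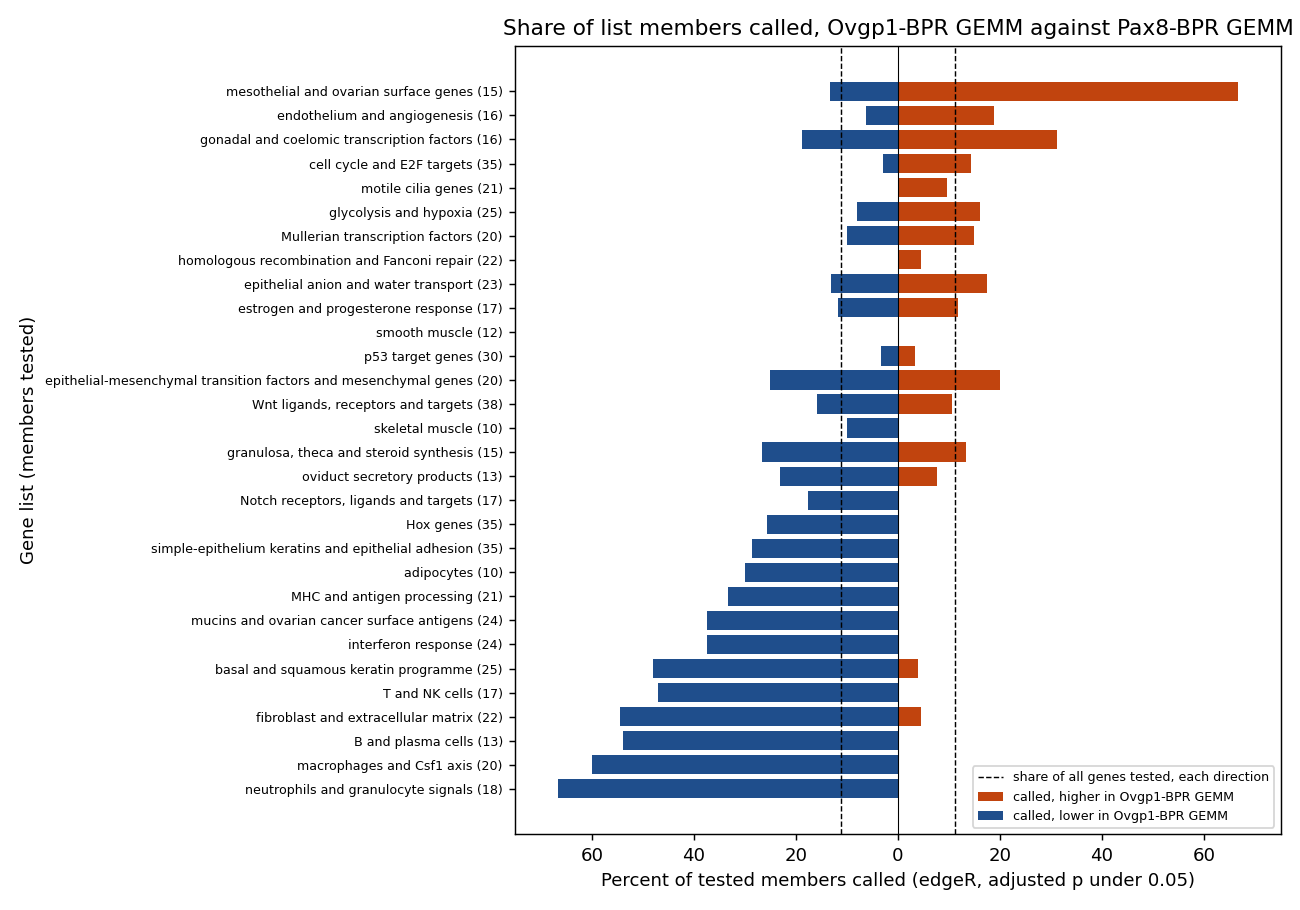
Percent of the tested members of each gene list called higher (right, orange) or lower (left, blue) in Ovgp1-BPR than in Pax8-BPR primary tumours, for lists with at least 10 tested members, given in brackets. Dashed lines mark the share of all genes tested, 11.2% in each direction.

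Of the list of simple epithelium, 10 of 35 (28.6%) were lower and none higher by edgeR, beside 11.2% of all genes each way. The median log2 fold change was -2.96. For 23 members all 3 Ovgp1-BPR libraries lay below all 4 Pax8-BPR libraries, against 14.3% of all genes. Epcam, the epithelial adhesion molecule, was read at 199, 45.5 and 3.61 CPM against 1541, 532, 1010 and 1280 CPM (log2 fold change -3.72 ± 1.36, adjusted p = 0.0526), and Cdh1, E-cadherin, at 189.9, 28.5 and 3.95 CPM against 1299, 296, 1278 and 1175 CPM (log2 fold change -3.77 ± 1.43, adjusted p = 0.0605). For both, the groups did not overlap but the 3 Ovgp1-BPR tumours spread widely, and neither gene was called. The tight junction claudin Cldn7 was read at 16.9, 6.74 and 0.113 CPM against 175, 205, 241 and 242 CPM (log2 fold change -4.76 ± 1.5, adjusted p = 0.0293). Grhl3, a grainyhead factor of epithelial barriers, had 0.0544 to 0.158 against 0.845 to 13.8 CPM, and Krt20, a keratin of gut and umbrella cells, had 0 to 0.475 against 0.951 to 22.3 CPM. Cldn7 and Grhl3 lost their calls without Ovgp1-BPR GEMM replicate 2 or 3 (highest adjusted p 0.0768 to 0.102). Krt20 lost the call without Ovgp1-BPR GEMM replicate 2 or 3, or without Pax8-BPR GEMM replicate 1 or 4 (highest adjusted p 0.158). The lower count was 19 without Ovgp1-BPR GEMM replicate 1, 2 without replicate 2 and 0 without replicate 3. Vim, vimentin, was not called (124 to 759.9 against 342 to 768 CPM, adjusted p = 0.61). Epcam and Cdh1 thus fell from 199 and 189.9 CPM in Ovgp1-BPR replicate 1 to a few CPM in replicate 3. The whole list did not fall as far. Its summed levels were 4725, 1914 and 1199 CPM in the Ovgp1-BPR tumours. They were 14180, 4632, 13150 and 10530 CPM in the Pax8-BPR tumours, and the ranges overlapped.

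In the list of basal and squamous epithelium, 12 of 25 members (48%) were lower in the Ovgp1-BPR tumours and 1 higher, beside 11.2% of all genes each way. The median log2 fold change was -4.39 (-3.96 with members at 0 in 1 group set to their bound). Beside Krt5 and Krt6a, Krt17, a keratin of stressed and appendage epithelium, was read at 13.9, 6.91 and 2.77 CPM against 496, 103, 907 and 824 CPM (log2 fold change -6.21 ± 1.24, adjusted p = 0.00245). Krt14, the partner of Krt5, was read at 34.6, 6.04 and 7.11 CPM against 477, 6, 464 and 261 CPM (log2 fold change -4.24 ± 1.28, adjusted p = 0.0237), where Pax8-BPR replicate 2 lay at the Ovgp1-BPR level. Krt16 and Krt6b had no count in any Ovgp1-BPR primary tumour and 0.165 to 8.83 and 0 to 6.55 CPM in the Pax8-BPR tumours. Their Pax8-BPR means were at least 22.7-fold and 12.4-fold above the floor, which does not hold for each library. The desmocollin Dsc3 was the exception, with 1.37, 4.84 and 31.7 CPM against 0, 1.21, 0.159 and 0.482 CPM (log2 fold change 4.73 ± 1.25, adjusted p = 0.0143). Krt17 and Krt16 kept their calls with each library left out in turn. Krt14 lost the call without Ovgp1-BPR GEMM replicate 2 or 3 (highest adjusted p 0.107). Krt6b lost the call without Ovgp1-BPR GEMM replicate 2 or 3, or without Pax8-BPR GEMM replicate 1 (highest adjusted p 0.0756). Dsc3 lost the call without Ovgp1-BPR GEMM replicate 3 (highest adjusted p 0.146). The lower count was 7 and 6 without Ovgp1-BPR GEMM replicate 2 and 3. Near-identical keratin genes such as Krt6a and Krt6b share reads, and their split depends on the authors' counting.

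On TPM, where genes can be compared, the simple keratins Krt7, Krt8, Krt18 and Krt19 made up 96.2 to 97.5% of all keratin transcripts in the Ovgp1-BPR tumours and 67.8 to 75.8% in the Pax8-BPR tumours. Krt5, Krt6a, Krt14 and Krt17 made up 1.24 to 1.97% and 10.2 to 29.8%. Total keratin was 1038 to 3238 TPM in the Ovgp1-BPR tumours, against 1450 TPM in Pax8-BPR replicate 2 and 5612 to 7995 TPM in the other 3. The summed share of these basal keratins thus separated all 7 tumours, whereas total keratin did not. In Pax8-BPR replicate 2 this rested on Krt17, with 127.6 of the 148.3 TPM of basal keratins. Krt5, Krt6a and Krt14 were at 10.59, 2.94 and 7.15 TPM there. Krt14 and Krt17 were chosen after their values were seen. The allografts had 2.81 to 9.87% and 15.8 to 24.1% basal keratins.

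Of the genes of fibroblasts and the extracellular matrix, 12 of 22 (54.5%) were lower in the Ovgp1-BPR tumours and 1 higher, beside 11.2% of all genes each way. Their median log2 fold change was -2.62, and their summed level was 4146 to 6092 CPM in the Ovgp1-BPR tumours and 7761 to 15810 CPM in the Pax8-BPR tumours. In bulk tumours fewer cells of a type and less RNA per cell cannot be told apart, here or for any other list. Col1a1, the main collagen I chain, was read at 326, 147 and 58.4 CPM against 3458, 3396, 3853 and 1783 CPM (log2 fold change -4.14 ± 1.04, adjusted p = 0.00974), and Col1a2, its partner, at 274, 39.4 and 18.3 CPM against 2646, 2757, 2994 and 1480 CPM (log2 fold change -4.48 ± 1.35, adjusted p = 0.0237). Postn, periostin of activated stroma, was read at 48.5, 22.8 and 9.03 CPM against 89.7, 325, 1528 and 141 CPM (log2 fold change -4.28 ± 1.06, adjusted p = 0.00877), and Dpt, dermatopontin, at 0 to 0.792 against 2.82 to 40.1 CPM (log2 fold change -6.01 ± 1.81, adjusted p = 0.0239). Col6a2, a collagen VI chain, was higher with 867, 1111 and 2620 CPM against 288, 498, 207 and 188 CPM (log2 fold change 2.38 ± 0.74, adjusted p = 0.0271). Col1a1 and Postn lost their calls without Ovgp1-BPR GEMM replicate 3 (highest adjusted p 0.0554 to 0.0615). Col1a2 and Dpt lost their calls without Ovgp1-BPR GEMM replicate 2 or 3 (highest adjusted p 0.104). Col6a2 lost the call without Ovgp1-BPR GEMM replicate 3, or without Pax8-BPR GEMM replicate 1, 3 or 4 (highest adjusted p 0.154). Over the list, the lower count was 6 without Ovgp1-BPR GEMM replicate 2 and 2 without replicate 3. These genes are also expressed by tumour cells of mesenchymal character, and the part that stroma has in the result was not tested.

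Regulators of epithelial-mesenchymal transition were called in both directions. 4 of 20 (20%) were higher and 5 (25%) lower, beside 11.2% of all genes each way. Snai2, a repressor of E-cadherin, was read at 6.18, 6.8 and 10.2 CPM against 1.06, 4.68, 3.75 and 1.66 CPM (log2 fold change 1.46 ± 0.51, adjusted p = 0.0442), and the ligand gene Tgfb2 at 70.3, 61.6 and 80.2 CPM against 18.9, 35.5, 17.6 and 14.4 CPM (log2 fold change 1.71 ± 0.52, adjusted p = 0.0242). Twist2 was lower with 0.0565 to 0.211 against 1.59 to 5.12 CPM (log2 fold change -4.53 ± 1.33, adjusted p = 0.0209), as was the matrix gene Tgfbi with 9.54 to 68.6 against 278 to 442 CPM (log2 fold change -3.46 ± 0.88, adjusted p = 0.0103). Snai2 lost the call without Ovgp1-BPR GEMM replicate 2 or 3, or without Pax8-BPR GEMM replicate 1 or 4 (highest adjusted p 0.167). Tgfb2 lost the call without Ovgp1-BPR GEMM replicate 2 or 3, or without Pax8-BPR GEMM replicate 1, 3 or 4 (highest adjusted p 0.0879). Twist2 and Tgfbi lost their calls without Ovgp1-BPR GEMM replicate 2 or 3 (highest adjusted p 0.0633 to 0.0953). Among the transition genes, the higher count was 1 without Ovgp1-BPR GEMM replicate 2 or 3 and 2 without Pax8-BPR GEMM replicate 1, 3 or 4, and the lower count was 1 without Ovgp1-BPR GEMM replicate 3 and 2 without Ovgp1-BPR GEMM replicate 2. Among genes of endothelium and angiogenesis 3 of 16 (18.8%) were higher and 1 (6.25%) lower. The higher ones were Esam, an endothelial adhesion molecule (65.8, 124 and 289.7 CPM against 26.7, 24.2, 26.1 and 21.7 CPM, log2 fold change 2.69 ± 0.45, adjusted p = 0.000731), Kdr, VEGF receptor 2 (59.5, 269 and 137 CPM against 32.9, 29.9, 29.8 and 23.8 CPM, log2 fold change 2.41 ± 0.46, adjusted p = 0.00193), and Angpt2, a ligand that destabilises vessels (55.4 to 118 against 9.2 to 22.1 CPM, log2 fold change 2.25 ± 0.54, adjusted p = 0.00792). Flt1, VEGF receptor 1, was lower (34.5 to 76.6 against 45.8 to 315 CPM, log2 fold change -1.97 ± 0.68, adjusted p = 0.0424). Esam, Kdr and Angpt2 kept their calls with each library left out in turn. Flt1 lost the call without Ovgp1-BPR GEMM replicate 1, 2 or 3, or without Pax8-BPR GEMM replicate 1, 3 or 4 (highest adjusted p 0.164). The list's summed level was 1581 to 2716 CPM in the Ovgp1-BPR tumours and 760.2 to 1758 CPM in the Pax8-BPR tumours, and these ranges overlapped. No smooth muscle gene of 12 was called by edgeR with all 7 libraries, although 4 were lower and 1 higher without Ovgp1-BPR GEMM replicate 1.

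**Figure D4:**
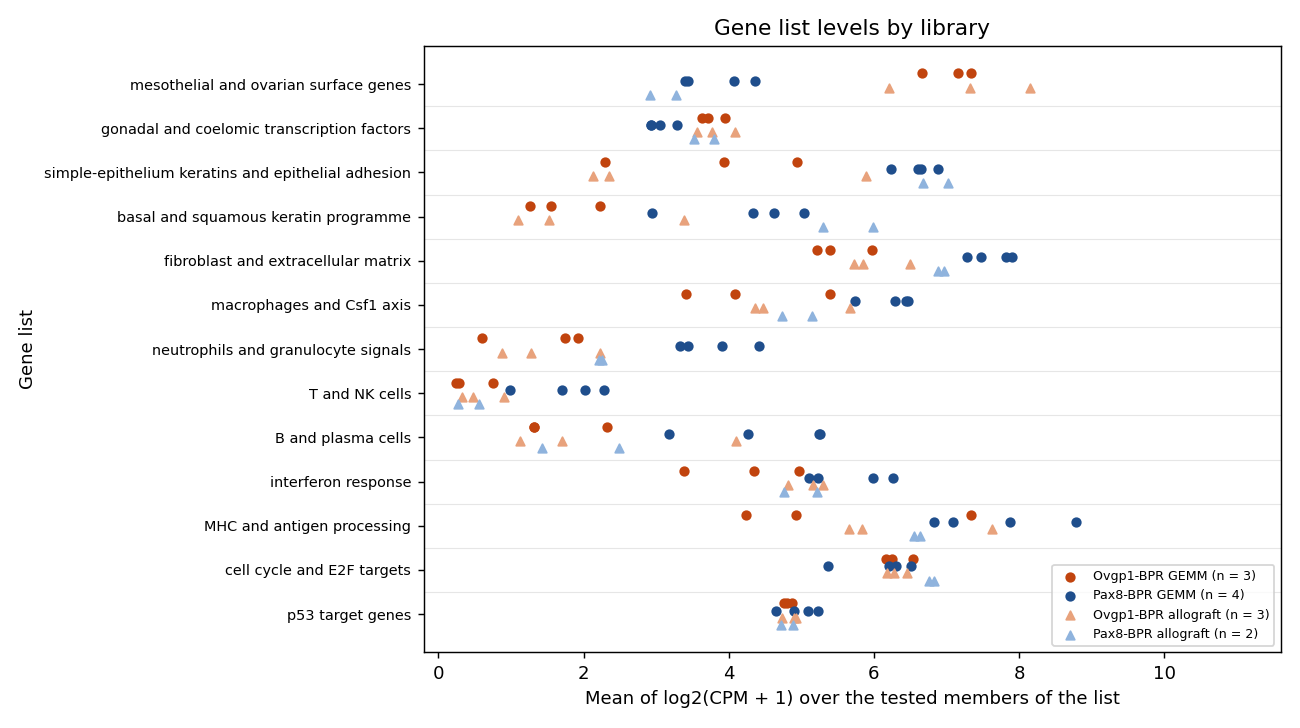
Mean of log2(CPM + 1) over the tested members of 13 gene lists in each Ovgp1-BPR and Pax8-BPR primary tumour (GEMM, circles) and allograft (triangles). Mesothelial genes lie at 6.66 to 7.34 in Ovgp1-BPR and 3.40 to 4.36 in Pax8-BPR primary tumours, and the p53 targets at 4.77 to 4.87 and 4.66 to 5.23.

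All 4 immune cell lists had members lower in the Ovgp1-BPR tumours and none called higher by edgeR, beside 11.2% of all genes each way. Macrophage genes had 12 of 20 lower calls (60%) and neutrophil genes 12 of 18 (66.7%). T and NK cell genes had 8 of 17 (47.1%), and B and plasma cell genes 7 of 13 (53.9%). The median log2 fold changes of these lists were -2.01, -4.04 (-3.50 with members at 0 in 1 group set to their bound), -3.46 (-3.19 with members at 0 in 1 group set to their bound) and -4.30. Summed levels of the macrophage list were 1754 to 2850 CPM in the Ovgp1-BPR tumours and 4745 to 8109 CPM in the Pax8-BPR tumours, and those of the B and plasma cell list 71.1 to 264 CPM in the Ovgp1-BPR tumours and 783 to 5015 CPM in the Pax8-BPR tumours. Those of the neutrophil list overlapped, with 740.4, 113.1 and 14.73 CPM against 7494, 691.2, 1592 and 933.7 CPM. T and NK cell genes were low in every tumour, with sums of 5.06 to 13.2 CPM in the Ovgp1-BPR tumours and 20.9 to 78.9 CPM in the Pax8-BPR tumours. Of the 17 T and NK members tested, 1, 7 and 9 had no count in Ovgp1-BPR replicates 1, 2 and 3, while each was detected in every Pax8-BPR tumour. This pattern and the share called are partly set by the filter on low counts. It passed 17 of 20 symbols, and 15 without Pax8-BPR GEMM replicate 4, so some members passed only with that tumour included. Counts of lower calls in these 4 lists were 3, 8, 1 and 3 without Ovgp1-BPR GEMM replicate 2 and 2, 3, 0 and 2 without replicate 3.

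By cell type, C1qa, a complement subunit made by macrophages, was read at 122, 51.8 and 32.2 CPM against 339.5, 227, 274 and 264 CPM (log2 fold change -2.01 ± 0.51, adjusted p = 0.00992), and Trem2, a lipid-sensing receptor, at 19.9, 5.71 and 4.06 CPM against 80.2, 33.6, 33.3 and 42.5 CPM (log2 fold change -2.26 ± 0.67, adjusted p = 0.0217). Nos2, inducible nitric oxide synthase, was read at 7.97, 4.29 and 3.05 CPM against 139, 17.9, 87.6 and 305 CPM (log2 fold change -4.75 ± 1.16, adjusted p = 0.00827), and the monocyte receptor gene Ccr2 at 0.707 to 4.7 against 3.94 to 28.2 CPM (log2 fold change -3.06 ± 1.09, adjusted p = 0.048). S100a8, a calprotectin subunit of neutrophils, was read at 1.79, 3.97 and 0.621 CPM against 54.5, 66, 29.6 and 37.1 CPM (log2 fold change -4.45 ± 1.20, adjusted p = 0.014), and Ngp, of neutrophil granules, at 0 to 0.0565 against 1.98 to 17 CPM. Mpo, myeloperoxidase, and Csf2, the cytokine GM-CSF, had no count in the Ovgp1-BPR tumours and were at least 8.99-fold and 7.24-fold lower against the floor. Among lymphocyte genes, Ighm, the IgM heavy chain, was read at 23.4, 2.23 and 2.77 CPM against 231, 975, 2746 and 777 CPM (log2 fold change -6.96 ± 2.06, adjusted p = 0.0218), Ms4a1, CD20, at 0 to 0.217 against 0.352 to 9.57 CPM (log2 fold change -5.32 ± 1.51, adjusted p = 0.0204), and Pou2af1, a B cell coactivator, at 0.282 to 0.381 against 0.845 to 17 CPM (log2 fold change -4.86 ± 1.41, adjusted p = 0.0201). Mzb1, of plasma cells, had 0 to 0.158 against 0.915 to 26.9 CPM. Cd3g, a T cell receptor subunit, had 0.0544 to 0.792 against 0.986 to 8.42 CPM (log2 fold change -3.92 ± 1.32, adjusted p = 0.0384), Ctla4, an inhibitory receptor, 0 to 0.0528 against 0.423 to 2.22 CPM, Gzmb, granzyme B, 0 to 0.211 against 0.352 to 8.13 CPM, and Gzma, granzyme A, no count against 0.0704 to 1.34 CPM. Csf2 kept its call with each library left out in turn. C1qa, Ngp, Ighm, Ms4a1, Pou2af1, Mzb1, Ctla4 and Gzma lost their calls without Ovgp1-BPR GEMM replicate 2 or 3 (highest adjusted p 0.0633 to 0.0976). Trem2 lost the call without Ovgp1-BPR GEMM replicate 2 or 3, or without Pax8-BPR GEMM replicate 1 (highest adjusted p 0.112). Nos2, S100a8 and Mpo lost their calls without Ovgp1-BPR GEMM replicate 3 (highest adjusted p 0.0522 to 0.0733). Ccr2 lost the call without Ovgp1-BPR GEMM replicate 2 or 3, or without Pax8-BPR GEMM replicate 2, 3 or 4 (highest adjusted p 0.175). Cd3g lost the call without Ovgp1-BPR GEMM replicate 2 or 3, or without Pax8-BPR GEMM replicate 2 or 4 (highest adjusted p 0.148). Gzmb lost the call without Ovgp1-BPR GEMM replicate 2 or 3, or without Pax8-BPR GEMM replicate 4 (highest adjusted p 0.0907).

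Some interferon response and antigen presentation genes were lower as well. 9 of 24 interferon genes (37.5%) and 7 of 21 genes of MHC and antigen processing (33.3%) were lower and none higher by edgeR. Of all genes, 11.2% were called each way. The median log2 fold changes of the 2 lists were -1.53 and -1.58. Fitted on the 7 libraries alone, the lower counts were 3 and 0. H2-K1, a class I heavy chain, was read at 1284, 121 and 81.8 CPM against 1889, 732, 3576 and 4972 CPM (log2 fold change -2.49 ± 0.87, adjusted p = 0.0453), and H2-D1, another, at 1149, 188 and 133 CPM against 1929, 1037, 2807 and 4299 CPM (log2 fold change -2.36 ± 0.67, adjusted p = 0.0178). The first Ovgp1-BPR library was within the Pax8-BPR range for both, so that the groups overlapped, and for no member of the MHC list were the groups apart, against 14.3% of all genes. Psmb8, an immunoproteasome subunit, had 88, 17.3 and 7 CPM against 137, 80.6, 235 and 442 CPM (log2 fold change -2.58 ± 0.80, adjusted p = 0.0267), and Nlrc5, the class I transactivator, had 51.2, 8.92 and 9.6 CPM against 33.8, 86.4, 173 and 247 CPM (log2 fold change -2.54 ± 0.89, adjusted p = 0.0453). Cxcl9, a T cell chemokine, had 0.544 to 0.897 against 2.82 to 47.7 CPM (log2 fold change -4.60 ± 1.38, adjusted p = 0.0229), and the antiviral synthetases Oas2 and Oas3 had 1.41 to 10.9 against 17 to 106 CPM (log2 fold change -3.25 ± 0.84, adjusted p = 0.0114) and 0.339 to 8.97 against 14.1 to 91.1 CPM (log2 fold change -3.62 ± 1.20, adjusted p = 0.0355). H2-K1 lost the call without Ovgp1-BPR GEMM replicate 2 or 3, or without Pax8-BPR GEMM replicate 1, 3 or 4 (highest adjusted p 0.169). H2-D1 and Oas2 lost their calls without Ovgp1-BPR GEMM replicate 2 or 3 (highest adjusted p 0.0638 to 0.0916). Psmb8, Cxcl9 and Oas3 lost their calls without Ovgp1-BPR GEMM replicate 2 or 3, or without Pax8-BPR GEMM replicate 4 (highest adjusted p 0.0899 to 0.135). Nlrc5 lost the call without Ovgp1-BPR GEMM replicate 2 or 3, or without Pax8-BPR GEMM replicate 3 or 4 (highest adjusted p 0.175). Neither list had a lower call without Ovgp1-BPR GEMM replicate 2, or without replicate 3, while without replicate 1 there were 13 and 18. The immune cell lists were lower in the same tumours, and their part in these results was not tested. Class I genes are near-identical in sequence, so that counts can be split among them.

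Of the cell cycle and E2F genes, 5 of 35 (14.3%) were higher and 1 (2.86%) lower, beside 11.2% of all genes each way, with a median log2 fold change of 0.28. Mki67, the Ki-67 antigen, was read at 459.8, 682 and 1057 CPM against 149, 265, 359.8 and 271 CPM (log2 fold change 1.49 ± 0.32, adjusted p = 0.00397), Ccne2, cyclin E2, at 20.3, 28.2 and 48.1 CPM against 3.73, 12.4, 12.5 and 19 CPM (log2 fold change 1.43 ± 0.37, adjusted p = 0.0118), and E2f8, a repressive E2F, at 46.3, 58.7 and 92.1 CPM against 16.8, 28.1, 45 and 39.8 CPM (log2 fold change 1.02 ± 0.29, adjusted p = 0.0184). E2f3 was lower with 17.4, 10 and 6.43 CPM against 20, 67.1, 30.6 and 32.1 CPM (log2 fold change -1.73 ± 0.55, adjusted p = 0.0299). Mki67 kept its call with each library left out in turn. Ccne2 and E2f8 lost their calls without Ovgp1-BPR GEMM replicate 3 (highest adjusted p 0.102 to 0.142). E2f3 lost the call without Ovgp1-BPR GEMM replicate 2 or 3, or without Pax8-BPR GEMM replicate 2 (highest adjusted p 0.144). Among the cell cycle genes, the higher count was 1 without Ovgp1-BPR GEMM replicate 3 and 3 without Ovgp1-BPR GEMM replicate 2 or Pax8-BPR GEMM replicate 1, and the lower count was 0 without Ovgp1-BPR GEMM replicate 2 or 3 and 2 without Pax8-BPR GEMM replicate 1, while on TPM limma called 11 higher and 0 lower. In the list of homologous recombination and Fanconi repair 1 of 22 was higher and none lower, against 11.2% of all genes each way. It was Xrcc2, a repair gene (18.3, 21.4 and 33 CPM against 4.93, 10.8, 11.1 and 9.42 CPM, log2 fold change 1.42 ± 0.34, adjusted p = 0.00777). Xrcc2 lost the call without Ovgp1-BPR GEMM replicate 3 (highest adjusted p 0.0598).

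Of the target genes of p53, 1 of 30 was higher and 1 lower, 6.67% in all beside 22.5% of genes tested, and their median log2 fold change was -0.37. Sesn1, a stress-induced sestrin, was read at 101, 108 and 153 CPM against 19.7, 23.6, 16.9 and 12.3 CPM (log2 fold change 2.74 ± 0.31, adjusted p = 3.26e-05), with no overlap, and Polk, a translesion polymerase, at 15.2, 8.48 and 10.8 CPM against 18, 11.2, 28.1 and 27 CPM (log2 fold change -0.88 ± 0.30, adjusted p = 0.0401). Cdkn1a, the p21 inhibitor, was not called (56.5, 39.8 and 90.6 CPM against 165, 49.2, 308 and 325 CPM, log2 fold change -1.76 ± 0.72, adjusted p = 0.0804), nor was Mdm2, which degrades p53 (53.2, 59.1 and 58.5 CPM against 50.9, 85, 76 and 47.9 CPM, log2 fold change -0.19 ± 0.26, adjusted p = 0.617). Sesn1 kept its call with each library left out in turn. Polk lost the call without Ovgp1-BPR GEMM replicate 2 or 3, or without Pax8-BPR GEMM replicate 3 or 4 (highest adjusted p 0.168). Among the p53 targets, the higher count was 2 without Ovgp1-BPR GEMM replicate 1, and the lower count was 0 without Ovgp1-BPR GEMM replicate 2 or 3 or Pax8-BPR GEMM replicate 3 or 4, 2 without Ovgp1-BPR GEMM replicate 1 and 4 without Pax8-BPR GEMM replicate 2, while on TPM limma called 5 higher and 0 lower. DESeq2 called 2 higher and 6 lower and voom 3 and 6.

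Wnt ligands were found among both the higher and the lower genes. Of the Wnt list 4 of 38 (10.5%) were higher and 6 (15.8%) lower, beside 11.2% of all genes each way. Wnt7a, of Müllerian epithelium, was read at 0.633, 0.381 and 0.339 CPM against 15.6, 202, 16.6 and 22.6 CPM (log2 fold change -7.13 ± 1.3, adjusted p = 0.00165), and Wnt10b at 0.317, 0.544 and 0.169 CPM against 32.8, 2.2, 15.4 and 28.5 CPM (log2 fold change -5.81 ± 1.15, adjusted p = 0.00231). Wnt2b, in contrast, was read at 5.86, 88.3 and 68.9 CPM against 0.423, 0.77, 1.06 and 0.482 CPM (log2 fold change 6.29 ± 1.3, adjusted p = 0.00312). The receptor gene Fzd3 was higher (122, 185 and 260.3 CPM against 5.42, 42.8, 2.91 and 1.77 CPM, log2 fold change 3.84 ± 0.82, adjusted p = 0.00369), and Dkk2, a secreted modulator of Wnt coreceptors, lower (0.422, 0.489 and 1.24 CPM against 21.5, 95.8, 45.1 and 10.4 CPM, log2 fold change -5.90 ± 1.10, adjusted p = 0.00162). Wnt7a, Wnt10b, Wnt2b, Fzd3 and Dkk2 kept their calls with each library left out in turn. Among the Wnt genes, the higher count was 7 without Ovgp1-BPR GEMM replicate 1 and 10 without Pax8-BPR GEMM replicate 2, and the lower count was 3 without Ovgp1-BPR GEMM replicate 3, while on TPM limma called 8 higher and 6 lower. Of the Notch list 3 of 17 (17.6%) were lower and none higher by edgeR. These were the receptor gene Notch3 (21.3 to 32.5 against 67.2 to 126 CPM, log2 fold change -1.84 ± 0.56, adjusted p = 0.025), Lfng, a glycosyltransferase that tunes Notch (7.51 to 20.2 against 24.6 to 86.8 CPM, log2 fold change -2.33 ± 0.75, adjusted p = 0.0318), and Hes6 (9.31 to 19.2 against 18.4 to 47.8 CPM, log2 fold change -1.18 ± 0.34, adjusted p = 0.0199). Notch3 lost the call without Ovgp1-BPR GEMM replicate 2 or 3 (highest adjusted p 0.115). Lfng lost the call without Ovgp1-BPR GEMM replicate 2 or 3, or without Pax8-BPR GEMM replicate 1 or 3 (highest adjusted p 0.139). Hes6 lost the call without Ovgp1-BPR GEMM replicate 2 or 3, or without Pax8-BPR GEMM replicate 2 (highest adjusted p 0.117). Among the Notch genes, the higher count was 1 without Ovgp1-BPR GEMM replicate 1 or Pax8-BPR GEMM replicate 2, and the lower count was 0 without Ovgp1-BPR GEMM replicate 2 or 3 and 5 without Pax8-BPR GEMM replicate 4, while on TPM limma called 1 higher and 3 lower.

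Hox genes, which set position along the body axis, were lower where called, with 9 of 35 (25.7%) lower and none higher by edgeR, beside 11.2% of all genes each way, and a median log2 fold change of -2.78 (-2.29 with members at 0 in 1 group set to their bound). Hoxb9 was read at 0.633, 1.03 and 0.621 CPM against 5.78, 112, 5.66 and 3.91 CPM (log2 fold change -5.37 ± 1.55, adjusted p = 0.0193), and Hoxb7 at 2.17, 0.489 and 0.452 CPM against 12.6, 67.7, 9.2 and 14.8 CPM (log2 fold change -4.64 ± 1.28, adjusted p = 0.0155). Pax8-BPR replicate 2 was by far the highest for Hoxb9 and Hoxb7. Hoxb9 lost the call without Ovgp1-BPR GEMM replicate 2 or 3, or without Pax8-BPR GEMM replicate 2 (highest adjusted p 0.1). Hoxb7 lost the call without Ovgp1-BPR GEMM replicate 2 or 3 (highest adjusted p 0.0798). Among all its members, the lower count was 0 without Ovgp1-BPR GEMM replicate 3, 1 without Ovgp1-BPR GEMM replicate 2 and 4 without Pax8-BPR GEMM replicate 2. In the allografts 13 of 35 Hox genes were lower, beside 6.02% of all genes.

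Mucins and surface antigens of ovarian cancer were lower in 9 of 24 cases (37.5%) and higher in none in the main fit, beside 11.2% of all genes each way. With edgeR on the 7 libraries alone, 1 of 23 was higher and 4 were lower. The libraries did not overlap for 3 members with Ovgp1-BPR higher and 8 with it lower, beside 14.4% and 14.3% of all genes. Muc4, a membrane mucin, was read at 10.8, 0.326 and 0.0565 CPM against 308, 138, 203 and 27.7 CPM (log2 fold change -5.50 ± 1.74, adjusted p = 0.0296), Muc20 at 0.0565 to 7.92 against 33.6 to 182 CPM (log2 fold change -4.89 ± 1.35, adjusted p = 0.0156), and Nectin4, an adhesion molecule, at 17.5, 1.69 and 0.79 CPM against 295, 45.5, 330.2 and 139 CPM (log2 fold change -4.92 ± 1.3, adjusted p = 0.0123). Muc4 lost the call without Ovgp1-BPR GEMM replicate 2 or 3, or without Pax8-BPR GEMM replicate 1 (highest adjusted p 0.11). Muc20 and Nectin4 lost their calls without Ovgp1-BPR GEMM replicate 2 or 3 (highest adjusted p 0.0633 to 0.0672). Over the list, the lower count was 1 without Ovgp1-BPR GEMM replicate 2 and 1 without replicate 3. Among ion and water transport genes 4 of 23 (17.4%) were higher and 3 (13%) lower, shares not far from the 11.2% of all genes each way. The water channel genes Aqp1 and Aqp5 were higher (658, 570.5 and 687 CPM against 26.6, 116, 120.4 and 85.4 CPM, log2 fold change 2.87 ± 0.67, adjusted p = 0.00619, and 24.4, 169 and 178 CPM against 7.54, 9.02, 2.01 and 34.6 CPM, log2 fold change 3.22 ± 0.84, adjusted p = 0.0118), while Aqp3 was lower (0 to 0.317 against 0.476 to 24 CPM, log2 fold change -5.98 ± 1.49, adjusted p = 0.00915). Slc26a4, pendrin, had no count in the Ovgp1-BPR tumours and was at least 29.9-fold lower against the floor. Aqp1 and Slc26a4 kept their calls with each library left out in turn. Aqp5 and Aqp3 lost their calls without Ovgp1-BPR GEMM replicate 3 (highest adjusted p 0.0503 to 0.0533). Among the transport genes, the higher count was 2 without Ovgp1-BPR GEMM replicate 3.

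In the list of glycolysis and hypoxia, where 1 symbol has a second gene entry, 4 of 25 entries (16%) were higher and 2 (8%) lower, beside 11.2% of all genes each way. Car9, a hypoxia-induced carbonic anhydrase, was read at 99.5, 137 and 255 CPM against 32.4, 3.3, 11.3 and 94.5 CPM (log2 fold change 2.21 ± 0.78, adjusted p = 0.046), P4ha1, a collagen prolyl hydroxylase subunit, at 231 to 374 against 78.9 to 153 CPM (log2 fold change 1.35 ± 0.34, adjusted p = 0.00941), and Pfkfb4, a glycolytic regulator, at 11, 16.8 and 9.2 CPM against 197, 24, 69.1 and 112 CPM (log2 fold change -3.02 ± 0.64, adjusted p = 0.00353). Pfkfb4 kept its call with each library left out in turn. Car9 lost the call without Ovgp1-BPR GEMM replicate 2 or 3, or without Pax8-BPR GEMM replicate 1, 2 or 3 (highest adjusted p 0.184). P4ha1 lost the call without Ovgp1-BPR GEMM replicate 2 (highest adjusted p 0.0542). For the whole list, the higher count was 1 without Ovgp1-BPR GEMM replicate 2 or 3 and 2 without Pax8-BPR GEMM replicate 2 or 3, and the lower count was 1 without Ovgp1-BPR GEMM replicate 1 or 3 or Pax8-BPR GEMM replicate 4, while on TPM limma called 8 higher and 2 lower.

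Markers of further cell types were checked. Here too, the share of all genes called was 11.2% each way. Of the granulosa, theca and steroid list 2 of 15 (13.3%) were higher and 4 (26.7%) lower. Among all its members, the higher count was 1 without Ovgp1-BPR GEMM replicate 1, and the lower count was 1 without Ovgp1-BPR GEMM replicate 2 or 3, while on TPM limma called 2 higher and 2 lower. Inhba, the activin A subunit, was lower (6.92, 0.816 and 1.75 CPM against 47.2, 40.1, 68 and 57 CPM, log2 fold change -4.07 ± 0.88, adjusted p = 0.00407), as were the progesterone-degrading enzyme gene Akr1c18 (0 to 0.0528 against 0.165 to 22.3 CPM) and Ptgfr, a prostaglandin receptor gene (0 to 0.106 against 0.161 to 1.53 CPM), while Nr5a2, a nuclear receptor of granulosa cells, was higher (3.81 to 11.7 against 0.642 to 1.69 CPM, log2 fold change 2.75 ± 0.79, adjusted p = 0.0196). Of 10 adipocyte genes 3 were lower. Beside Cfd these were Lep, leptin, with 0, 2.75, 0.74 and 0 CPM against no count, and Retn, resistin, with 0.0528 to 0.0565 against 0.268 to 19 CPM. Summed adipocyte levels were 100.5 to 291 CPM in the Ovgp1-BPR tumours and 133 to 467 CPM in the Pax8-BPR tumours. In the smaller lists, Sohlh1, a germ cell factor, was the higher oocyte gene of 7 (0.422 to 8.98 against 0 to 0.165 CPM, log2 fold change 5.61 ± 1.56, adjusted p = 0.0163), and Tnni2, a fast troponin, the lower skeletal muscle gene of 10 (0 to 0.109 against 0.385 to 10.1 CPM). Cela3b, an elastase, was the higher pancreatic acinar gene of 4 (0.272 to 6.07 against 0 to 0.423 CPM, log2 fold change 3.29 ± 1.12, adjusted p = 0.0456), and no erythroid gene of 7 was called by edgeR. Inhba and Tnni2 kept their calls with each library left out in turn. Akr1c18 lost the call without Ovgp1-BPR GEMM replicate 2 or 3 (highest adjusted p 0.0724). Ptgfr lost the call without Ovgp1-BPR GEMM replicate 2 or 3, or without Pax8-BPR GEMM replicate 3 (highest adjusted p 0.128). Nr5a2 lost the call without Ovgp1-BPR GEMM replicate 1 (highest adjusted p 0.0671). Lep lost the call without Ovgp1-BPR GEMM replicate 1, 2 or 3, or without Pax8-BPR GEMM replicate 2 or 3 (highest adjusted p 0.132). Retn lost the call without Ovgp1-BPR GEMM replicate 1, 2 or 3, or without Pax8-BPR GEMM replicate 2 (highest adjusted p 0.119). Sohlh1 lost the call without Ovgp1-BPR GEMM replicate 3 (highest adjusted p 0.0994). Cela3b lost the call without Ovgp1-BPR GEMM replicate 1 or 3, or without Pax8-BPR GEMM replicate 1, 2, 3 or 4 (highest adjusted p 0.72).

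The same contrast in allografts shared no library with the primary tumours. There 2706 genes were called, 1501 (7.51%) higher and 1205 (6.02%) lower in the Ovgp1-BPR allografts, and on TPM 71.3% of 3363 calls were higher in place of 55.5%. Of the genes called in primary tumours 90.9% had the same sign in allografts. The share over all genes tested was not taken, so how far 90.9% exceeds it is not known. 1688 were called in both in the same direction, which is 37.6% of the primary tumour calls and 62.4% of the allograft calls, and 3 were called in opposite directions. As the allografts may derive from these primary tumours, they are not independent evidence. The difference between the contrasts was called for 0 genes by edgeR, with 1786 at an unadjusted p under 0.05, while DESeq2 called 107. The allograft count ran from 599 without Pax8-BPR allograft replicate 2 to 3864 without Ovgp1-BPR allograft replicate 3.

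By gene, the mesothelial list had 10 higher and 1 lower calls in allografts, and Upk3b was read at 856, 1990 and 276 CPM against 5.57 and 0.364 CPM (log2 fold change 8.43, adjusted p = 0.0025). Basal keratin genes had 9 lower calls, with Krt17 at 9.82, 0.927 and 59.6 CPM against 718 and 76.8 CPM (log2 fold change -4.08, adjusted p = 0.0267). Krt6a overlapped there, with 0, 0 and 87.5 CPM against 672 and 79.4 CPM (adjusted p = 0.173). Sesn1 was at 91, 140.5 and 59.1 CPM against 11.4 and 10.5 CPM (adjusted p = 0.000261). Some other lists were split otherwise than in the primary tumours. Of the cell cycle genes 0 were higher and 6 of 35 lower (median log2 fold change -0.34). The Müllerian factors had 0 higher and 5 of 20 lower. The gonadal factors had 1 of 16 higher and 1 lower (median -0.15), and the fibroblast genes 2 of 22 higher and 3 lower. Of all genes, 7.51% were higher and 6.02% lower in the Ovgp1-BPR allografts. The immune lists had 1, 0, 0 and 1 lower calls for macrophage, neutrophil, T and NK, and B and plasma cell genes, and 1 higher call in the last. Ighm was at 9.48, 1.96 and 963 CPM in Ovgp1-BPR and 37.4 and 2.33 CPM in Pax8-BPR allografts (adjusted p = 0.217), and replicate 3 of the Ovgp1-BPR allografts lay within the range of the Pax8-BPR primary tumours. Summed levels of the B and plasma cell list were 66.6 to 1936 CPM in Ovgp1-BPR and 148 to 543 CPM in Pax8-BPR allografts, and those of the T and NK cell list 5.62 to 17.4 and 5.09 to 10.4 CPM. In the test of the difference between the contrasts, 11 of 13 B and plasma cell, 10 of 17 T and NK cell, 10 of 20 macrophage and 7 of 18 neutrophil genes had an unadjusted p under 0.05, beside 1786 of all 20000 genes. No gene passed after adjustment by edgeR (smallest adjusted p 0.442). Replicate 3 of the Ovgp1-BPR allografts also had 465 CPM of Epcam, against 2.79 and 0.464 in the other two.

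**Figure D5:**
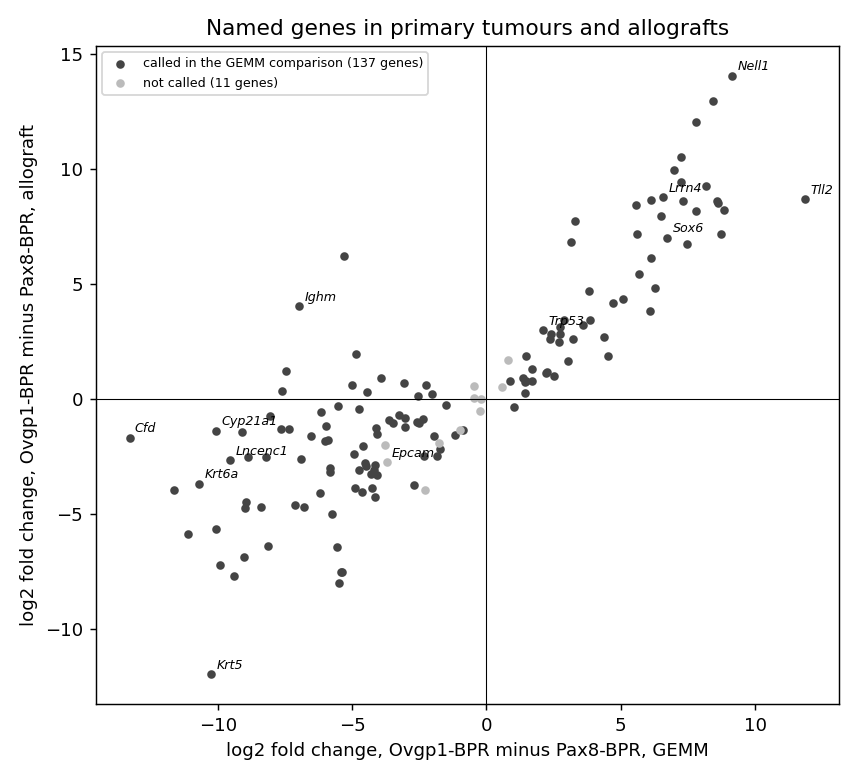
Log2 fold change, Ovgp1-BPR minus Pax8-BPR, in primary tumours (x) and allografts (y) for the 148 named genes, dark where called in primary tumours (137) and grey where not (11). Of genes called higher in primary tumours 54 of 55 were above 0 in allografts, and of those called lower 70 of 82 were below 0. Most were named for their primary tumour values, and the share over all genes tested was not taken. Values of genes with no count in a group depend on the fit's prior count.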

How the data were processed

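Total RNA was read as gene tables of 55450 genes. Per the submitters' processing notes, the tools include cutadapt 1.18 and STAR 2.7.0f, with RSEM 1.3.1 also listed beside Picard and bcl2fastq. The builds named are mm10 and GRCm38. Strandedness and annotation release are not given in the sources used here. The authors deposited RSEM expected counts, which divide shared reads between genes and need not be whole, and these were rounded. They also deposited TPM, used for keratin shares and as an alternative.

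Counts were tested with edgeR 4.0.16 (R 4.3.3): filterByExpr, TMM scaling, and 1 quasi-likelihood fit over all 26 tumours in 8 groups, so that groups share an estimate of spread. The genes tested held 99.9% of tumour counts. The standard error is the log2 fold change divided by the root of F. The 3 contrasts were primary tumours, allografts and their difference, each adjusted by Benjamini-Hochberg, and scripts were tested on simulated data. No pair of replicates was a duplicate. A bound divides the mean of the group with counts by a floor of 3 counts per library. Single libraries of that group can lie under the floor. The bound covers counting error only, and fitted fold changes of genes with 1 to 3 counts in a group are not given. Coordinates are GENCODE M21. Alternatives were RLE scaling, DESeq2 1.42.0, other filters, only the compared libraries, limma 3.58.1 on log2(TPM + 1) or log2(TPM + 0.1), voom with quality weights, and leaving out each library. Leaving out Ovgp1-BPR GEMM replicate 1 and Pax8-BPR GEMM replicate 2 together was chosen after seeing the data.

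Genes were named by rule: the 15 largest fold changes per direction among called genes with at least 10 CPM and no overlap, up to 4 called members per list in its main direction and 2 in the other, and 13 genes of interest. Members and the 33 gene lists were chosen with earlier results of these data known. Sox6, Unc45b, Cdkn1a, Mdm2, Foxj1, Krt14, Krt17 and C1qa fall outside the rule and were chosen after their values were seen, and some genes that it selects are not reported here.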

Additional observations from a re-analysis of the deposited data

Results flagged for a closer look

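In 27 of the 148 named genes, 1 of the 4 Pax8-BPR primary tumours lay far from the other 3, with a gap to its nearest neighbour above Dixon's 95% critical value for the group's range. Chance alone marks about 1 in 20 groups of normally distributed values. The rule was applied to CPM without a log, where the rate by chance is not known, so 27 cannot be read as an excess. Groups of 3 were not examined.

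Replicate 1 was the one apart for Vim (768 CPM, nearest 367), Cyp11a1 (47.4 CPM, nearest 0.634), Lcn2 (5840 CPM, nearest 1040), Krt6b (6.55 CPM, nearest 1.06), Amhr2 (10.8 CPM, nearest 0.963), Unc45b (6.2 CPM, nearest 2.38) and Ctsd (2680 CPM, nearest 1150).

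In replicate 2 it was the case for Cdh1 (296 CPM, nearest 1170), Gmnc (0.11 CPM, nearest 0), Shisal1 (1.65 CPM, nearest 0.161), Clca3b (368 CPM, nearest 12.9), Wnt7a (203 CPM, nearest 22.6), Fzd3 (42.8 CPM, nearest 5.42), Hoxb9 (112 CPM, nearest 5.78), Hoxb7 (67.7 CPM, nearest 14.8) and Retn (19 CPM, nearest 3.01).

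Replicate 3 stood out for Lncenc1 (399 CPM, nearest 2.14), Pthlh (146 CPM, nearest 16.3), Osr1 (13.6 CPM, nearest 1.97), Upk3b (1.16 CPM, nearest 23), Cfap46 (0.951 CPM, nearest 0.22) and Postn (1530 CPM, nearest 325).

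Replicate 4 was the distant one for Ano5 (3.21 CPM, nearest 0.211), Cntn2 (7.55 CPM, nearest 0.986), Prss22 (145 CPM, nearest 19.6), Krt20 (22.3 CPM, nearest 3.8) and Gzmb (8.13 CPM, nearest 0.99).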

How the results depend on the processing

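The primary tumour contrast called 4493 genes. It called 1856 when fitted on the 7 libraries alone, where fewer samples estimate the spread, and 1597 to 4939 with 1 library left out, lowest without Ovgp1-BPR GEMM replicate 3. The other planned settings gave 3390 to 6635 calls, and leaving out Ovgp1-BPR GEMM replicate 1 and Pax8-BPR GEMM replicate 2 together gave 5011. The allograft contrast called 2706, but 4091 by DESeq2, 4502 by voom, 10 on the 5 libraries alone and 599 to 3864 with 1 left out, where a lone Pax8-BPR allograft is assumed to vary like the other groups. The difference between contrasts called 0, against 107 by DESeq2, 1 by limma on log2(TPM + 1), 2 on log2(TPM + 0.1) and 0 to 1 with 1 library left out. Of the 148 named genes, all 61 lower calls lost to leaving out a library were lost without Ovgp1-BPR GEMM replicate 2 or 3. 35 of 55 higher and 17 of 82 lower calls were lost in no setting. A gene that a setting did not test, or to which DESeq2 gave no adjusted p, was not counted as lost. Ovgp1, which DESeq2 did not call, is among the 35. The sign turned for 3 uncalled genes, Brca1 (0.222, 0.261 and 0.222 in the 3 TPM settings and -0.492 to 0.0358 with 1 library left out), Mdm2 (0.138, 0.142 and 0.138 in the TPM settings and 0.0132 without both libraries named above) and Pgr (-0.0523 to 1.32 with 1 library left out). The cause of these shifts was not tested. No paired analysis was possible because replicate numbers only name tumours of different animals in accession order. Depths of 13987123 to 20514825 counts leave genes of a few counts without a reliable fold.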
